A study of Mus musculus with 16 samples.

Results

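The MYC/MAX/MXD network is the group of transcription factors that pair with MAX or MLX, and its 10 members examined here were Myc, Mycn, Mycl, Max, Mxd1, Mxd4, Mxi1, Mnt, Mlx and Mlxipl. They were picked by gene symbol, each from an array row annotated to that gene alone, among 22180 genes with such a row. All 10 had a row, and 9 of them stood above the median of the array on at least 4 of 16 arrays and were tested, as were 13555 genes in all. The samples were 8 liver tumours and the matching non-tumour tissue of the same 8 C57BL/6J mice, aged 18 months. Of these, 4 were MYC/REG3A mice, which carried a REG3A transgene beside the MYC transgene (MYC+/+, REG3A+/+ in the labels), and 4 were MYC mice without REG3A (MYC+/+, REG3A-/-). In both genotypes c-MYC was expressed in the liver from woodchuck hepatitis virus control sequences. This gave 4 groups of 4 arrays, namely MYC/REG3A tumours, MYC/REG3A non-tumour liver, MYC tumours and MYC non-tumour liver. All 8 mice carried the MYC transgene, so no value here sets a MYC mouse against a liver free of it. The species of the transgenic MYC sequence is not in the labels, and how far the Myc row reads transgene RNA was not tested.

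MYC, a basic helix-loop-helix leucine zipper protein, binds the E-box motif of DNA as a dimer with MAX and activates genes of growth and ribosome production. MXD proteins, MXI1 and MNT form dimers with the same partner and recruit SIN3 corepressor complexes to such motifs. A parallel arm pairs MLX with the glucose-responsive factors MLXIPL (ChREBP), which drives lipid synthesis genes in hepatocytes, and MLXIP (MondoA).

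Levels are log2 array intensities, so a difference of 1 is a doubling, and levels of different genes are not set against each other. The 16 arrays had medians of 4.896 to 4.973. All 8 hepatocyte markers examined stood at 8.59 or more on every array, against a highest upper quartile of 6.89. The first principal component over all tested genes, with 49.2% of the variance, placed 6 tumours at 32.7 to 42.3 and all 8 non-tumour samples at -31 to -26.4. MYC/REG3A tumours 2 and 4 had intermediate values of -4.21 and 2.55. The SD of the tumour change over genes was 0.336 and 0.429 in these mice, against 0.679 and 0.657 in MYC/REG3A mice 1 and 3 and 0.624 to 0.729 in MYC mice.

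Promoter sequences show which members carry the motif that the network itself binds. The table of RefSeq windows (GRCm38.p6, 250 bases before to 50 bases after a transcript start) held 9 of the 10 members, and Myc is named only. The only motif searched was the E-box CACGTG, which reads the same on both strands. It stood in a window of 5 of the 9, namely Max, Mxd4, Mnt, Mlx and Mlxipl (in 1 of its 2 windows), and not in those of Mycn, Mycl, Mxd1 and Mxi1. Of all 27025 genes with a window 8.09% had the motif in a window, and of 14253 windows with a GC content of at least 55% 10.2% had it. The windows of Max, whose RNA rose in the tumours of both genotypes, and of Mxd4, which passed in the average alone and not in 8 of 15 alternatives, are given whole, and those of the other 3 members around the motif. They are written 5′ to 3′ on the strand of the gene, with the motif in capitals.

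Max, chr12:76962199-76962498, minus strand, motif starting at -3 from the transcript start: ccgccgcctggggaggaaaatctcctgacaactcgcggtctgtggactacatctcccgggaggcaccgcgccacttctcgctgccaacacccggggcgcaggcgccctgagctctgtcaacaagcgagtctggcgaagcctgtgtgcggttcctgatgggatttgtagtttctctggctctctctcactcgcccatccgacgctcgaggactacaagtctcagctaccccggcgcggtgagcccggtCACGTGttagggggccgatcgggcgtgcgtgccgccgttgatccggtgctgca
Mxd4, chr5:34187661-34187960, minus strand, motif starting at -219: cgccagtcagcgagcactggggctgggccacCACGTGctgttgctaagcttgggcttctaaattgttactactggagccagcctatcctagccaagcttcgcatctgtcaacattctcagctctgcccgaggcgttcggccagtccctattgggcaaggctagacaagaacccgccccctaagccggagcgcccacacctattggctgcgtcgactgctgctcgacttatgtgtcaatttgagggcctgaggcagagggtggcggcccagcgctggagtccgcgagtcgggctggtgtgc
Mnt, chr11:74830789-74830818, plus strand, motif starting at -123: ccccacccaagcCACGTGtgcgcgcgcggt
Mlx, chr11:101087238-101087267, plus strand, motif starting at -40: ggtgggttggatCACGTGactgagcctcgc
Mlxipl, chr5:135089780-135089809, plus strand, motif starting at -98: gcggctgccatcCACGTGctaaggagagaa

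In Max the motif lies across the transcript start, whereas in Mxd4 it lies near the upstream end of the window. A match describes these letters only.

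Tumours had more Max RNA in both genotypes and less Myc RNA in MYC mice, and Mxd4 was higher in the average over the 8 mice. The other 6 tested members did not pass the test in any comparison. In MYC mice 2 of 9 members passed limma's test at an adjusted p of 0.05, where 33.2% of all tested genes did. In MYC/REG3A mice 1 of 9 passed, against 12.5% of all tested genes. With both genotypes averaged 3 of 9 passed, against 43% of all tested genes (21.5% higher and 21.4% lower). The median change of the 9 members was 0.03 in MYC mice, 0.04 in MYC/REG3A mice and 0.03 averaged, beside -0.03, -0.02 and -0.03 over all tested genes. With only 9 members these shares are coarse, and whether they differ from those of all genes was not tested.

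Myc encodes the factor the transgene adds. In MYC mice its level was 7.09, 7.24, 7.17 and 6.84 in the tumours of mice 1 to 4, against 7.92, 7.78, 7.61 and 7.41 in their non-tumour liver. The groups did not overlap, as in 30.1% of all tested genes, and the tumour was lower in 4 of 4 mice, by a log2 change of -0.83 to -0.43. The mean was 7.09 ± 0.17 in tumours and 7.68 ± 0.22 in non-tumour liver (SD, n = 4 each). Myc fell by 0.59 on the log2 scale (SE 0.13, limma with mouse as a block, adjusted p = 0.00673, 95% interval -0.88 to -0.31). Without the block the change was the same, but its SE was 0.453 and the adjusted p 0.338. That SE rests on a spread shared by all 4 groups. The SD of Myc was 1.05 in MYC/REG3A tumours and 0.939 in their non-tumour liver. With only the 8 arrays of MYC mice in the fit, and the mouse block kept, the SE was 0.115 (limma, adjusted p = 0.0133).

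In MYC/REG3A mice Myc was 7.10, 9.37, 7.26 and 7.59 in tumours of mice 1 to 4, against 6.99, 9.24, 7.69 and 7.97 in non-tumour liver. Mouse 2 was highest in both tissues, and the groups overlapped throughout. The tumour was higher in mice 1 and 2, by 0.11 and 0.13, and lower in mice 3 and 4, with changes of -0.43 and -0.38. The log2 change was -0.14 (SE 0.13, adjusted p = 0.486, 95% interval -0.43 to 0.14). The highest of the 4 changes of MYC mice (-0.434) and the lowest of the 4 of MYC/REG3A mice (-0.43) nearly met. The change in MYC/REG3A mice exceeded that in MYC mice by 0.45 (SE 0.18, 95% interval 0.05 to 0.85), with an unadjusted p of 0.0316 in limma and an adjusted p of 0.873. Over all genes 1 of 13555 (0.00738%) passed this test of the difference, and none of the members did. Averaged over both genotypes the Myc change was -0.37 (SE 0.09, adjusted p = 0.0089), and that call was lost without the block (adjusted p = 0.383).

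The order of the 4 group means of Myc was MYC/REG3A non-tumour, MYC/REG3A tumour, MYC non-tumour and MYC tumour, and the first 2 steps were smaller than the SD within a group. In tumours MYC/REG3A mice averaged 7.83 ± 1.05 and MYC mice 7.09 ± 0.17 (SD, n = 4 each), a difference of 0.74 (SE 0.45, limma, adjusted p = 0.58). Without MYC/REG3A mouse 2 the difference was 0.228. In non-tumour liver the difference was 0.29 (SE 0.45, adjusted p = 0.999), and without that mouse it was -0.13.

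Markers of some cell types fell in tumours, whereas of 8 hepatocyte markers 1 fell in each genotype. Of all tested genes 15.8% fell in MYC tumours and 4.88% in MYC/REG3A tumours. Of 8 Kupffer cell markers, 6 fell in MYC tumours and 7 in MYC/REG3A tumours, of 8 sinusoidal endothelial markers 7 and 5 fell, and of 8 stellate cell markers 5 and 4 fell. Not all markers of a list went the same way. The endothelial marker Lyve1 was higher in the tumour in 6 of 8 mice and the stellate marker Col1a1 in 7 of 8. In the average over both genotypes 6 stellate markers fell and 1 rose. The summed unlogged level of the Kupffer markers was 1240 to 3340 in MYC/REG3A tumours and 4240 to 5870 in MYC/REG3A non-tumour liver, and 2240 to 3740 in MYC tumours and 3200 to 9550 in MYC non-tumour liver. For the endothelial markers it was 1720 to 3540 and 3490 to 4500 in the same tissues of MYC/REG3A mice, and 2140 to 2810 and 3870 to 6700 in those of MYC mice. For the stellate markers it was 1470 to 5260 in MYC/REG3A tumours and 5050 to 6790 in their non-tumour liver, and 2580 to 4160 in MYC tumours and 5810 to 9090 in theirs. Of 5 tested B and plasma cell markers 4 fell in MYC tumours and 3 in MYC/REG3A tumours, of 5 neutrophil markers 4 and 0, of 6 bile duct markers 3 and 0, and of 3 T cell markers 0 and 0. The B and plasma cell sums, over 6 genes, were 206 to 1710 in MYC/REG3A tumours and 1230 to 3540 in their non-tumour liver, and 395 to 468 in MYC tumours and 1120 to 4250 in theirs. Unlogged sums weigh the brightest gene most, here Ighm. Its mean log2 level was 8.33 in MYC/REG3A tumours and 10.59 in their non-tumour liver, and 8.10 in MYC tumours and 10.67 in theirs. The neutrophil sums overlapped between tissues in both genotypes (192 to 309 in MYC/REG3A tumours and 244 to 458 in their non-tumour liver, 210 to 544 in MYC tumours and 252 to 640 in theirs). No marker of Kupffer, endothelial, stellate, B and plasma cells or neutrophils was below the array median on all arrays, whereas 2 T cell markers and 1 bile duct marker were. Their part in the Myc, Max and Mxd4 changes was not tested. In bulk tissue fewer cells of a type and less RNA per cell cannot be told apart.

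**Figure D1:**
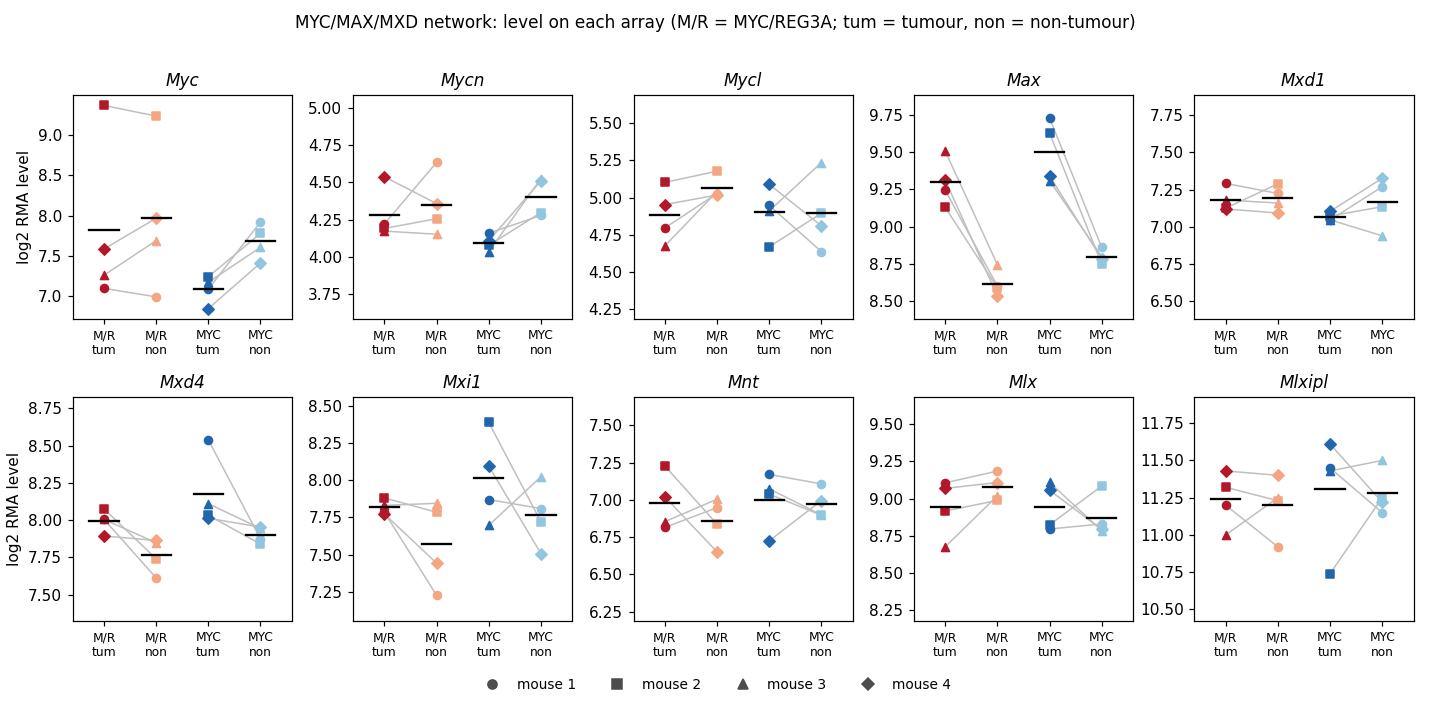
Log2 array level of each network member on every array, grouped as MYC/REG3A tumour, MYC/REG3A non-tumour, MYC tumour and MYC non-tumour, with a marker shape for each mouse, a grey line joining its 2 tissues and a black bar for the group mean. Max stands higher in all 8 tumours than in any non-tumour sample, and Myc shows MYC/REG3A mouse 2 far above the other mice in both tissues (9.37 in its tumour and 9.24 in its non-tumour liver).

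Mycn, the paralogue best known from embryonic and neural tissue, was above the array median on 0 of 16 arrays and was not tested with the others. It was 4.17 to 4.54 in MYC/REG3A tumours and 4.15 to 4.63 in their non-tumour liver, and 4.04 to 4.16 in MYC tumours against 4.28 to 4.53 in MYC non-tumour liver. The MYC groups did not overlap, as was so for 30.1% of all tested genes, a set that leaves out Mycn and other genes of low level. In a fit without the filter on low values the log2 change of Mycn was -0.31 in MYC mice, with an adjusted p of 0.0742 in limma. Mycl, the third MYC family gene, stood near the array median and passed it on 9 of 16 arrays. Its tumour change was 0.01 in MYC mice (adjusted p = 0.966) and -0.18 in MYC/REG3A mice (adjusted p = 0.377), and the groups overlapped in both.

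Max encodes the shared partner of the MYC, MXD and MNT proteins. In MYC mice its level was 9.73, 9.63, 9.31 and 9.34 in tumours of mice 1 to 4, against 8.86, 8.75, 8.80 and 8.79 in non-tumour liver. In MYC/REG3A mice it was 9.24, 9.13, 9.51 and 9.31 in tumours, against 8.60, 8.59, 8.74 and 8.54 in non-tumour liver. The lowest of the 8 tumours lay above the highest of the 8 non-tumour samples, a separation found in 8.97% of all tested genes. Max rose by 0.70 in MYC tumours (SE 0.10, limma, adjusted p = 0.00151), a 1.63-fold difference, with means of 9.50 ± 0.21 in tumours and 8.80 ± 0.05 in non-tumour liver (SD, n = 4 each). It rose by 0.68 in MYC/REG3A tumours (SE 0.10, adjusted p = 0.00713), or 1.6-fold, with means of 9.30 ± 0.16 and 8.62 ± 0.09 (SD, n = 4 each).

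The tumour change of Max was 0.64, 0.54, 0.76 and 0.78 in MYC/REG3A mice 1 to 4 and 0.87, 0.88, 0.51 and 0.55 in MYC mice 1 to 4. MYC/REG3A mice 2 and 4, whose tumours had smaller changes over all genes, were within the range of the others. The change in MYC/REG3A mice differed from that in MYC mice by -0.02 (SE 0.15, 95% interval -0.35 to 0.31, adjusted p = 0.988). Averaged over the 8 mice Max rose by 0.69 (SE 0.07, adjusted p = 0.000196), 1.61-fold. It passed the test in each genotype under every alternative run, with adjusted p up to 0.00912 in MYC mice and 0.0412 in MYC/REG3A mice.

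The level of Max was in the order MYC tumour, MYC/REG3A tumour, MYC non-tumour and MYC/REG3A non-tumour, and the step between the tumour groups was smaller than the larger of their SDs. Between genotypes Max differed by -0.20 in tumours (limma, adjusted p = 0.536) and by -0.18 in non-tumour liver (adjusted p = 0.984), both lower in MYC/REG3A mice. The non-tumour groups did not overlap, as was so for 3.88% of all tested genes.

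No member changed by 1 or more, so the genes most like Max and Myc in their pattern were chosen after their values were seen. Likeness was the mean absolute difference of centred log2 levels over the 16 arrays. Nearest to Max were the row annotated Mir5099 (0.0916), Map3k20, which encodes a mitogen-activated kinase kinase kinase (0.0997), and Mta1, which encodes a subunit of the NuRD complex (0.108), while the mean absolute deviation of Max itself was 0.346. Nearest to Myc was Cish, which encodes an inhibitor of cytokine signalling, at 0.317, where Myc deviated by 0.515. Cish shared the high values of MYC/REG3A mouse 2, with 8.25 in its tumour and 8.11 in its non-tumour liver. The arrays are the same for both genes of each pair, and so are their groups.

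Mxd4 encodes a MAX dimerisation protein of the repressing arm. It was 8.54, 8.03, 8.11 and 8.01 in MYC tumours 1 to 4, against 7.88, 7.84, 7.95 and 7.95 in MYC non-tumour liver. In MYC/REG3A mice it was 8.01, 8.08, 8.01 and 7.89 in tumours, against 7.61, 7.74, 7.85 and 7.86 in non-tumour liver. The groups did not overlap in either genotype, as was so for 30.1% of all tested genes in MYC mice and 19.4% in MYC/REG3A mice. The Mxd4 level was higher in the tumour in 8 of 8 mice, by 0.03 to 0.66. The change of 0.27 in MYC mice (SE 0.12, limma, adjusted p = 0.111) and of 0.23 in MYC/REG3A mice (adjusted p = 0.232) did not pass. Averaged over both genotypes Mxd4 rose by 0.25 (SE 0.08, adjusted p = 0.0378). That call was lost in 8 of 15 alternatives, among them the leaving out of any of 6 mice, for example 0.184 with an adjusted p of 0.0906 without MYC mouse 1.

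Mxi1 encodes another MAX-binding repressor. Its tumours averaged 7.82 ± 0.05 in MYC/REG3A mice, against 7.58 ± 0.29 in their non-tumour liver, and 8.01 ± 0.30 in MYC mice, against 7.77 ± 0.21 in theirs (SD, n = 4 each). The tumour was higher in 6 of 8 mice, and the averaged change of 0.25 did not pass in limma (SE 0.12, adjusted p = 0.126). Without MYC mouse 3, whose change was -0.33, it was 0.34 with an adjusted p of 0.0322. A dimmer row of the gene, with a mean of 5.09 against 7.79 for the row used, was 5.01 to 5.16 on average in the 4 groups.

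Mxd1, an MXD repressor linked to differentiation, and Mnt, a widely expressed MAX-binding repressor, did not pass the test between tissues. The averaged change was -0.06 for Mxd1 (95% interval -0.21 to 0.10, limma, adjusted p = 0.547) and 0.07 for Mnt (95% interval -0.13 to 0.28, adjusted p = 0.56). Tumour and non-tumour groups of both genes overlapped in each genotype. Between the tumours Mxd1 was 7.12 to 7.29 in MYC/REG3A mice and 7.05 to 7.10 in MYC mice, which did not overlap, but the difference of 0.11 did not pass (adjusted p = 0.682). At 3.53% of all tested genes the tumours of the genotypes did not overlap.

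**Figure D2:**
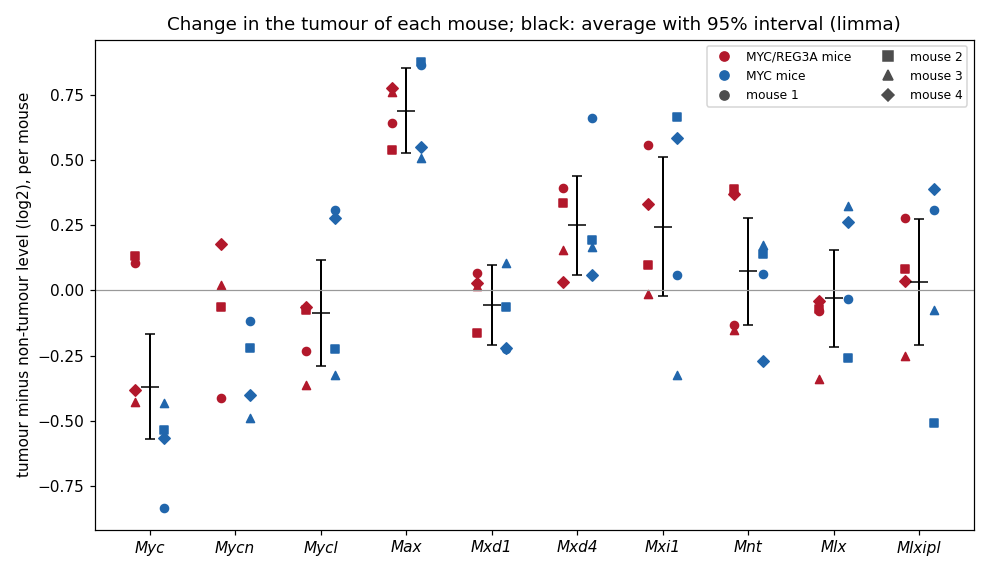
Tumour minus non-tumour log2 level in each of the 8 mice for the network members, MYC/REG3A mice (red, left) beside MYC mice (blue, right), with the limma average over both genotypes and its 95% interval in black for the tested members. Max is above 0 in every mouse (0.51 to 0.88), Myc is below 0 in the 4 MYC mice and on both sides of 0 in MYC/REG3A mice, and most other members scatter around 0.

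Mlxipl encodes ChREBP, and Mlx the partner it needs to bind DNA. Mlxipl was 11 to 11.43 in MYC/REG3A tumours and 10.92 to 11.4 in their non-tumour liver, and 10.74 to 11.61 in MYC tumours against 11.15 to 11.5 in MYC non-tumour liver. Its averaged change was 0.03 (95% interval -0.21 to 0.27, limma, adjusted p = 0.834), and 5 of 8 mice were higher. Mlx averaged 8.94 ± 0.20 in MYC/REG3A tumours, 9.08 ± 0.09 in their non-tumour liver, 8.95 ± 0.16 in MYC tumours and 8.87 ± 0.14 in theirs (SD, n = 4 each). Its averaged change was -0.03 (95% interval -0.22 to 0.16, adjusted p = 0.803). The groups of both genes overlapped in each genotype.

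None of the 9 tested members passed the test between genotypes, in tumours or in non-tumour liver. An unadjusted p under 0.05 in limma was found for 0 of 9 in each tissue, and for 1437 of 13555 genes in tumours and 739 of 13555 in non-tumour liver. Over all tested genes 0.0221% passed in tumours (0.0148% of all genes lower in MYC/REG3A mice) and 0% in non-tumour liver. The median difference of the members was -0.02 in tumours and -0.08 in non-tumour liver, beside -0.01 and 0.00 over all genes.

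Of 5 further network genes, Mxd3 and the retrogene Mycs were above the array median on 0 of 16 arrays, and the 3 tested did not pass in any comparison. Mlxip, which encodes MondoA, was 7.27 to 7.69 in MYC/REG3A tumours and 7.70 to 7.97 in MYC tumours, and 7.44 to 7.85 in MYC/REG3A non-tumour liver and 7.87 to 8.31 in MYC non-tumour liver. The genotypes did not overlap in either tissue, as was so for 3.53% of all tested genes in tumours and 3.88% in non-tumour liver. The difference was -0.35 in tumours (unadjusted p = 0.0156 in limma, adjusted p = 0.392) and -0.39 in non-tumour liver (unadjusted p = 0.00823, adjusted p = 0.904). Bmyc, a Myc-related gene of rodents, had an averaged tumour change of -0.48 (SE 0.20, adjusted p = 0.0824). It varied widely between mice, from -1.18 in MYC/REG3A mouse 3 to 0.71 in MYC mouse 4. A dimmer row of Bmyc, with a mean of 4.96 against 8.12 for the row used, lay near the array median and was not tested by itself. That row averaged 5.09 in MYC tumours (4.88 to 5.37) against 4.96 in their non-tumour liver (4.84 to 5.12). In MYC/REG3A mice it averaged 4.95 in tumours (4.69 to 5.08) against 4.84 in non-tumour liver (4.63 to 5.06), so the tissues overlapped in both genotypes. Mga, which encodes a MAX-binding protein with a T-box domain, had an averaged change of 0.09 (adjusted p = 0.325).

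Genes that work with the network were read from lists chosen with earlier results of these data known, so their directions are no independent evidence. Among 8 tested genes of the SIN3 corepressor, 1 fell and 0 rose in MYC mice, where 15.8% of all tested genes fell and 17.4% rose. For MYC/REG3A mice the count was 1 that fell and 0 that rose, where 4.88% of all tested genes fell and 7.58% rose. The gene was Sin3b, a scaffold of the complex, at -0.60 in MYC tumours (SE 0.12, limma, adjusted p = 0.00468) and -0.43 in MYC/REG3A tumours (adjusted p = 0.0429). The MYC/REG3A call was lost without mouse 1, 3 or 4 (adjusted p = 0.182, 0.16 and 0.1). Rbbp7, a histone-binding subunit, rose in the average over genotypes (adjusted p = 0.0357), a call lost with arrays centred on their median (0.18, adjusted p = 0.0681) and without any of 6 mice, MYC mice 1, 3 and 4 and MYC/REG3A mice 1, 2 and 3 (adjusted p = 0.0646 to 0.0911).

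Coactivators of MYC were higher in tumours where they passed the test. Of 11 tested, 5 rose and 0 fell in MYC mice with a median of 0.20, and 2 rose and 0 fell in MYC/REG3A mice with a median of 0.10, where 17.4% and 7.58% of all tested genes rose. Without MYC mouse 2, and likewise without MYC mouse 3, 3 rose in MYC mice. Ruvbl2, a helicase-like ATPase, rose by 0.81 in MYC tumours (SE 0.10, adjusted p = 0.000946) and by 0.47 in MYC/REG3A tumours (adjusted p = 0.0204). Kat2a, the acetyltransferase GCN5, rose by 0.76 and 0.48 (adjusted p = 0.00165 and 0.0261 in limma). The Ruvbl2 call in MYC/REG3A mice was lost without mouse 1, 3 or 4 (adjusted p = 0.0973, 0.0895 and 0.0547) and the Kat2a call without mouse 1, 2 or 3 (0.114, 0.0639 and 0.0604). Ruvbl1 rose by 0.75 in MYC tumours (adjusted p = 0.00906) and was at 0.43 in MYC/REG3A tumours (adjusted p = 0.125). Ccnt1, the cyclin of the elongation factor P-TEFb, rose by 0.38 in MYC tumours (adjusted p = 0.0321), a call lost without MYC mouse 1, 2 or 3 (adjusted p of 0.0686, 0.0677 and 0.129).

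Of 12 tested genes that act on the stability of MYC, 4 rose and 1 fell in MYC mice with a median of 0.21, and 4 rose and 0 fell in MYC/REG3A mice with a median of 0.05. Of all tested genes 17.4% rose and 15.8% fell in MYC mice, and 7.58% rose and 4.88% fell in MYC/REG3A mice. Without MYC mouse 1, 2 or 4 the count that fell in MYC mice was 0, and without MYC mouse 1, 2 or 3 the count that rose was 3. Aurka and Plk1, mitotic kinases that stabilise MYC proteins, rose by 1.83 and 1.97 in MYC tumours (adjusted p = 0.00103 and 0.00261) and by 1.69 and 2.59 in MYC/REG3A tumours (adjusted p = 0.00617 and 0.00464, limma). Skp2, a ubiquitin ligase subunit, rose by 1.18 in MYC tumours (adjusted p = 0.00319) and by 1.12 in MYC/REG3A tumours (adjusted p = 0.013). Gsk3b, the kinase that marks MYC for degradation, rose by 0.61 in MYC/REG3A tumours (adjusted p = 0.0195) and was at 0.20 in MYC tumours (adjusted p = 0.272). The Skp2 call in MYC/REG3A mice was lost without mouse 1 or 3 (adjusted p = 0.0736 and 0.0712), as was that of Gsk3b (0.0938 and 0.096).

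Genes known to be induced by MYC were higher in tumours at most of the members that passed. Of 14 tested, 8 rose and 1 fell in MYC mice with a median of 0.86, and 5 rose and 0 fell in MYC/REG3A mice with a median of 0.47, where 17.4% and 7.58% of all tested genes rose. Npm1 and Ncl, nucleolar proteins of ribosome assembly, rose by 1.44 and 1.76 in MYC tumours (adjusted p = 0.000993 and 0.000956) and by 1.15 and 1.20 in MYC/REG3A tumours (adjusted p = 0.0082 and 0.013, limma). Cad, which starts pyrimidine synthesis, rose by 1.64 in MYC tumours (adjusted p = 0.000671) and by 0.78 in MYC/REG3A tumours (adjusted p = 0.0264). Prmt5, an arginine methyltransferase, rose by 0.64 and 0.47 (adjusted p = 0.00159 and 0.0174). Without MYC/REG3A mouse 1 or 3 the MYC/REG3A calls were lost for Ncl (adjusted p = 0.0596 and 0.0687), Cad (0.113 and 0.122) and Prmt5 (0.0822 and 0.0729). The gene that fell in MYC mice was Ccnd2, a cyclin, at -0.95 (adjusted p = 0.00772).

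Of 6 tested genes known to be repressed by MYC, 3 fell and 1 rose in MYC mice with a median of -0.27, and 0 fell and 1 rose in MYC/REG3A mice with a median of -0.15. The shares of all tested genes were 15.8% that fell and 17.4% that rose in MYC mice, and 4.88% and 7.58% in MYC/REG3A mice. Without MYC mouse 2, 3 or 4 the count that fell in MYC mice was 2. The one that rose was Cdkn1a, the p21 cell cycle inhibitor, by 2.51 in MYC tumours (SE 0.18, limma, adjusted p = 0.000221) and by 1.96 in MYC/REG3A tumours (adjusted p = 0.00241). Gas1, a growth arrest gene, fell by 0.82 in MYC tumours (adjusted p = 0.00104) and was at -0.30 in MYC/REG3A tumours (adjusted p = 0.0962). In tumours Gas1 was higher in MYC/REG3A mice than in MYC mice by 0.87 (adjusted p = 0.00344; 0.267 without MYC/REG3A mice 2 and 4, and 0.142 with the 8 tumour arrays alone), while its tumour changes did not pass the test of their difference (adjusted p = 0.873). Ndrg2 fell by 0.48 in MYC tumours (adjusted p = 0.00663) and was at -0.32 in MYC/REG3A tumours (adjusted p = 0.0663). Ndrg1 went the other way and was higher in the tumour in 7 of 8 mice. Its changes ran from -0.162 in MYC mouse 1 to 1.62 in MYC/REG3A mouse 3, and it did not pass in either genotype. In the average over both genotypes 3 of the 6 fell and 2 rose, where 21.4% and 21.5% of all tested genes did.

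Mlxipl and Mlx did not pass the test, and their targets in the ChREBP and MondoA arm passed in both directions. Of 17 tested, 6 fell and 2 rose in MYC mice with a median of -0.56, and 2 fell and 1 rose in MYC/REG3A mice with a median of -0.26. Among all tested genes 15.8% fell and 17.4% rose in MYC mice, and 4.88% fell and 7.58% rose in MYC/REG3A mice. In the average over both genotypes 10 of the 17 fell and 2 rose with a median of -0.4, where 21.4% and 21.5% of all tested genes did. In MYC mice 6 fell with any mouse left out, while 0 rose without mouse 1 or 3 and 1 without mouse 2. For MYC/REG3A mice 0 fell and 0 rose without mouse 1 or 3, 0 fell and 1 rose without mouse 4, and 4 fell and 1 rose without mouse 2. Acacb, an acetyl-CoA carboxylase that limits fatty acid oxidation, fell by 3.24 in MYC tumours (SE 0.47, limma, adjusted p = 0.00149) and was at -1.62 in MYC/REG3A tumours (adjusted p = 0.0519). Acaca, the carboxylase of fatty acid synthesis, fell by 0.73 in MYC tumours (adjusted p = 0.00557) and by 0.61 in MYC/REG3A tumours (adjusted p = 0.0297). Thrsp, a lipogenic regulator, was at -0.997 in MYC tumours (adjusted p = 0.00575) and -0.79 in MYC/REG3A tumours (adjusted p = 0.0356), calls lost without the mouse block (adjusted p = 0.274 and 0.469), as were those of Acaca in MYC/REG3A mice (0.125) and of G6pc in MYC mice (0.12). G6pc, the last enzyme of glucose release, rose by 0.60 in MYC tumours (adjusted p = 0.0373) and by 0.97 in MYC/REG3A tumours (adjusted p = 0.0155). Without MYC/REG3A mouse 1, 3 or 4 the MYC/REG3A calls were lost for Acaca (adjusted p = 0.127, 0.135 and 0.0874) and Thrsp (0.159, 0.154 and 0.076), and that of G6pc without mouse 1 or 3 (0.0815 and 0.0751). Without MYC mouse 1 or 3 the call of G6pc in MYC mice was lost (0.128 and 0.144), and without MYC/REG3A mouse 2 Acacb fell by 2.106 in MYC/REG3A tumours (adjusted p = 0.0267).

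Counts of some lists in MYC/REG3A mice were lower without mouse 1, 3 or 4, while that of the repressed targets stayed at 1. Without mouse 1, and likewise without mouse 3, the lists had 0 SIN3 genes, 0 coactivators, 2 stability genes, 1 induced target, 1 repressed target and 0 ChREBP or MondoA targets past the test, and over all genes 281 and 273 passed where 1690 did with all mice. Without mouse 4 the counts were 0, 1, 4, 5, 1 and 1 in the same order, with 944 genes in all, and without mouse 2 they were 1, 1, 4, 5, 1 and 5. Without mice 2 and 4 together they were 1, 2, 4, 5, 1 and 4 in the same order.

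**Figure D3:**
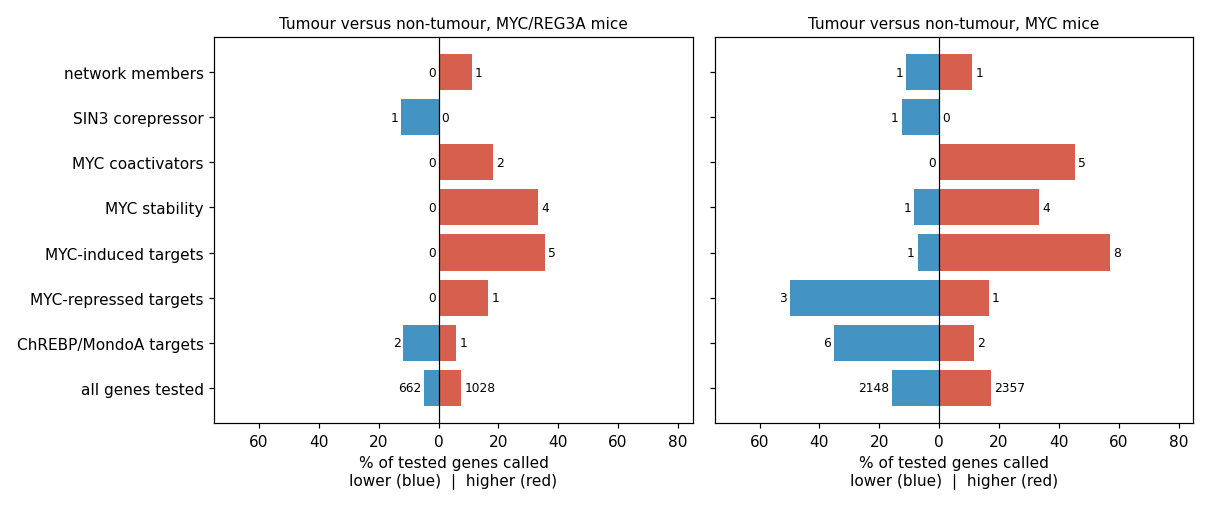
Share of the tested genes of each list, in percent, that passed limma's test as lower (blue, left of 0) or higher (red, right of 0) in tumours, for MYC/REG3A mice on the left and MYC mice on the right, with the number of genes beside each bar and all tested genes in the bottom row. Of the MYC-induced targets 5 rose in MYC/REG3A mice and 8 in MYC mice, and of the ChREBP and MondoA targets 2 and 6 fell.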

How the data were processed

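RNA of 16 mouse liver samples (200 ng of Trizol-extracted total RNA, labelled as single-stranded cDNA per the labels' protocols) was read on 1-colour arrays. The deposited values are log2 intensities made by the authors by RMA. The submitters' processing notes name version 1.4.1 of the Affymetrix Expression Console. Its settings and the array build are not given in the sources used here, and the log base was read from the values. Values are relative to the whole array. Precision is limited by the number of arrays.

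Of 41345 rows, 23521 carried 1 gene symbol, 1814 several and 16010 none. The row of highest mean was kept for each gene. Genes above the array median on at least 4 of 16 arrays were tested with limma 3.58.1 (R 4.3.3, lmFit and eBayes, 2-sided, Benjamini-Hochberg over 13555 genes, threshold 0.05), with all arrays in 1 fit and a shared spread. The mouse was a fixed block for tumour changes, since the titles give each tumour and its non-tumour liver from 1 animal. Deviations from group means correlated within mice at r = 0.0963 to 0.325, and the tumour was closest to its own mouse in 4 of 4 mice of each genotype. Genotypes were compared from group means without a block. No 2 arrays held identical values (0 pairs).

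The members and lists were chosen with earlier results of these data known. Named genes are all members and relatives and up to 4 genes per list of lowest p in the average. Some genes of these lists are not analysed here. The scripts were tested on simulated data. The alternatives were no filter, the mean of rows, median centring, eBayes with trend and robust, other blocks, the arrays of a comparison alone, each mouse left out, and MYC/REG3A mice 2 and 4 left out together.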

Additional observations from a re-analysis of the deposited data

Results flagged for a closer look

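In 3 of 60 groups of 4 arrays over the 15 network genes, the highest sample stood apart from the next by more than Dixon's critical value, and chance flags about 1 in 20 groups. Mycn was 4.54 in the tumour of MYC/REG3A mouse 4, next to 4.22. Mycl was 5.18 in the non-tumour liver of MYC/REG3A mouse 2, next to 5.04. Mlx was 9.09 in the non-tumour liver of MYC mouse 2, next to 8.83.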

How the results depend on the processing

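The Max calls held in each genotype and in the average under all alternatives run, with averaged changes of 0.662 to 0.723 and adjusted p up to 0.00185 in limma. No tested direction of a called result turned. In MYC mice 2 members passed with any mouse left out, and 1 passed with no replicate block and 1 with the mouse as a random block, since the SE of Myc was then 0.453 and 0.41 (adjusted p = 0.338 and 0.279). In MYC/REG3A mice 1 member passed with any mouse left out. In the average 2 to 3 members passed with a mouse left out, Mxd4 being lost without MYC mice 1, 2 or 3 (adjusted p = 0.0906, 0.0532 and 0.0529), without MYC/REG3A mice 1, 2 or 3 (0.0914, 0.0871 and 0.0633), without MYC/REG3A mice 2 and 4 (0.0972) and with centred arrays (0.0632). With a mouse left out 0 members passed in the difference of changes and between genotypes. The replicate numbers of the genotypes mark different animals, with r of -0.271 to 0.415 between same-numbered samples, of which 0 of 8 tumours and 2 of 8 non-tumour samples were closest to their own number. With the replicate block 0 members passed between genotypes, and Myc differed by 0.742 in tumours (SE 0.352, adjusted p = 0.468). Over all genes the count was 4505 in MYC mice (2975 without mouse 4), 1690 in MYC/REG3A mice (281, 273 and 944 without mice 1, 3 and 4), 1 for the difference of changes (0 to 3 over alternatives), 0 between non-tumour livers (22 without MYC mouse 2) and 3 between tumours (0 to 114, with 15 under the replicate block, and 114 without MYC/REG3A mouse 1). Bmyc passed in the average without MYC mouse 4 (-0.67, adjusted p = 0.0134) and without MYC/REG3A mice 2 and 4 (-0.758, adjusted p = 0.0327). Background signal was not measured here, and Mycn was below the median of every array.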
